A study of Drosophila melanogaster with 4 samples.

Results

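Nsun2 (CG6133, FBgn0026079) is the gene knocked out in this series of Drosophila melanogaster ovaries, and its single row was followed through every table. It was 1 of 2860 genes listed in each table, and it was chosen by identifier, not by its values. Its protein, an RNA methyltransferase of the NOL1/NOP2/SUN family, transfers a methyl group to the fifth carbon of cytosine in RNA and so makes 5-methylcytosine (m5C). In flies and mammals the enzyme is best known for methylating transfer RNAs, where m5C protects the tRNA from cleavage, and it also methylates messenger RNAs. The ovary makes and loads the maternal messages of the egg, many of which are stored and translated later.

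The groups were NSUN2 KO ovaries and wild-type ovaries, both labelled with the strain W1118, and each genotype had 1 poly(A) mRNA library and 1 ribosome footprint library. Footprints are the mRNA fragments of 28 to 30 nt that a ribosome shields from nuclease, and they show how heavily a message is occupied by ribosomes. The sources used here do not give the knockout allele, the part of the gene it removes, the age of the flies or the number of animals per library. With 1 library per group no difference has a replicate check, and no p-value was computed.

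The deposited values were scaled by the authors to depth and gene length, in a unit that the tables do not name. The whole reads behind them were recovered from the values, up to 1 depth constant per assay that was itself estimated. With the constants used, the NSUN2 KO mRNA library had 2.58-fold as many reads per unit of value as the wild-type one, and for footprints the ratio was 2.01. Recovered reads summed to 7710618 in NSUN2 KO mRNA and 3009962 in wild-type mRNA over 2570 genes. They summed to 2081872 in NSUN2 KO footprints and 1070244 in wild-type footprints over 2732 genes. These sums cover listed genes and leave out whole factors common to a gene's reads and its length. The constants were chosen so that small factors were balanced between the genotypes, with each gene's ratio of reads in lowest terms. In mRNA, the read number was a multiple of 3 for 23.9% of genes in NSUN2 KO and 26.2% in wild type. In footprints, it was a multiple of 2 for 32.4% of genes in NSUN2 KO and 34.5% in wild type. With constants 3 and 2 times larger, these shares of genes were 9.002% in NSUN2 KO and 73.3% in wild type for mRNA. For footprints they were 16.9% in NSUN2 KO and 67.3% in wild type. By chance, 25% of read numbers in lowest terms would be multiples of 3 and 33.3% multiples of 2. With the larger constants the depth ratios would be 0.861 and 1.01, so which mRNA library was deeper rests on this choice. The deposited values and the folds taken from them do not depend on it.

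The first comparison asked whether the Nsun2 message was lost in the ovaries labelled as knockout. Nsun2 had an mRNA value of 1.17 in the NSUN2 KO library, resting on 84 reads, against 25.2 in the wild-type library, resting on 699 reads. The NSUN2 KO level was 4.66% of the wild-type level (95% counting interval 3.67 to 5.84), which is 21.5-fold lower (17.1 to 27.3). The difference was thus far larger than counting error, while its spread between animals is unknown. With the mRNA constant 3 times larger, Nsun2 would rest on 28 NSUN2 KO and 699 wild-type reads, with an interval of the fold from 14.7 to 32.6. Each interval follows from the NSUN2 KO share of the gene's reads by the exact Clopper-Pearson method. It covers counting error alone, because each group has 1 library. The labels name no molecular identifiers that would tell copies of a molecule apart. Copies may thus count as separate reads, and the interval may be too narrow.

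Footprints of Nsun2 were also far lower in the NSUN2 KO library. The gene had a footprint value of 1.28 in the NSUN2 KO library, from 17 reads, against 38.8 in the wild-type library, from 257 reads. The NSUN2 KO footprint level was 3.29% of the wild-type level (1.89 to 5.37), or 30.4-fold lower (18.6 to 53.0). Neither library was listed at 0 for Nsun2 in either assay, so a residual signal remained in both NSUN2 KO libraries. Whether the residual reads fall inside or outside the part of the gene that was removed cannot be read from a value per gene, and their source was not tested.

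The step that recovered the reads also gave the lengths by which Nsun2 was scaled. The length was 2444 nt in the mRNA tables and 746 codons, or 2238 nt, in the footprint tables. The files do not name the length units. Codons are assumed for footprints because the median length over genes was 592.5 in that unit, against 2408.5 in the mRNA tables. At these depth constants, the reads of Nsun2 would be higher by a whole factor if the lengths were larger by the same factor. With the footprint constant 2 times larger, they would be 17 in NSUN2 KO and 514 in wild type, with an interval of the fold from 18.8 to 52.6.

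Every listed gene had an m5C level of at least 0.1, so the ranks hold among such genes and not among all ovary messages. In the wild type Nsun2 stood in the middle range of the list. Its mRNA value of 25.2 lay below the median of 33.5, and 36.4% of the listed genes were lower. Its footprint value of 38.8 lay above the median of 30.1, and 58.2% of the listed genes were lower. In the NSUN2 KO libraries it stood at the bottom of both lists. Only 4 of the other 2859 genes had a lower mRNA value than Nsun2 in the NSUN2 KO library, and 27 had a lower footprint value. The median was 33.6 in NSUN2 KO mRNA and 27.9 in NSUN2 KO footprints, close to the wild-type medians. The values are scaled to depth within each library, so a fall shared by most messages would not show in these medians. The fall of Nsun2 is thus relative to the other listed genes.

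**Figure D1:**
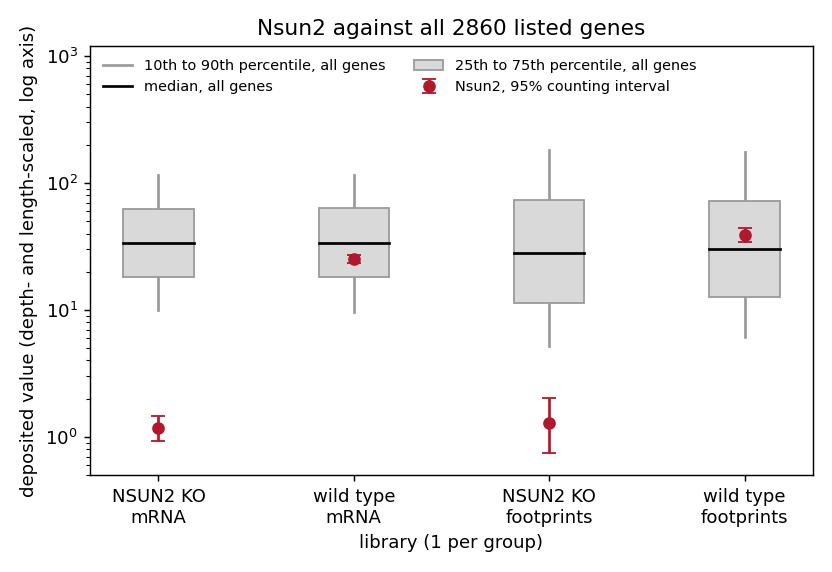
Deposited value (depth- and length-scaled, log axis) of Nsun2 in each of the 4 libraries, as red points with exact Poisson 95% counting intervals, over all 2860 listed genes (box, 25th to 75th percentile; line, 10th to 90th percentile; bar, median). Nsun2 lies at 1.17 and 1.28 in the NSUN2 KO libraries, below the 10th percentile of 9.95 and 5.21, and at 25.2 and 38.8 in the wild-type libraries, within the boxes.

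The genes that shared its low NSUN2 KO level had low wild-type levels as well. The 4 genes with less NSUN2 KO mRNA than Nsun2 had wild-type mRNA values from 0.842 to 1.21, so they were low in both genotypes, and 0 of the 4 stood 2-fold or more below the wild type. Among the 27 genes with a lower NSUN2 KO footprint value, the highest wild-type footprint value was 4.98, well under the 38.8 of Nsun2. Of these 27 genes, 13 stood 2-fold or more below the wild type in footprints, against 5.4% of all genes with a mean value of at least 1. The 27 genes were picked for low NSUN2 KO values, which favours such falls, so nothing further was drawn from this count. Read the other way, 1818 other genes had at least as much wild-type mRNA as Nsun2, and the lowest NSUN2 KO value among them was 3.77. In footprints there were 1194 such genes, with a lowest NSUN2 KO value of 8.09. No other listed gene therefore combined a wild-type level like that of Nsun2 with a NSUN2 KO level as low, in either assay.

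**Figure D2:**
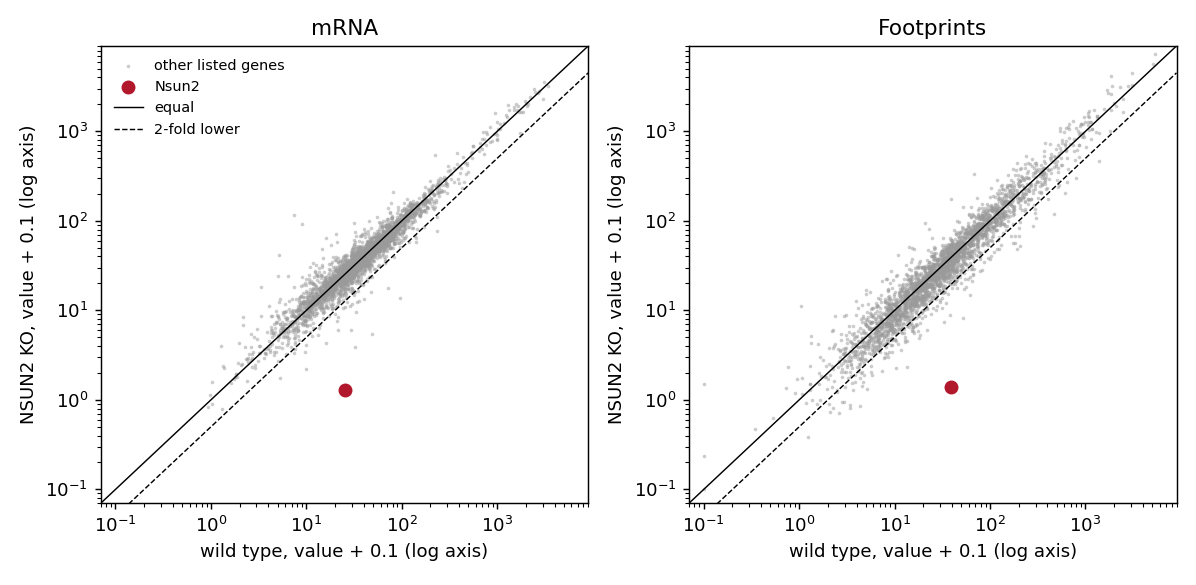
NSUN2 KO value against wild-type value of each listed gene (value + 0.1, log axes) for mRNA and footprints, with lines for equal values and for 2-fold lower. Nsun2, in red, lies apart from the other genes below the 2-fold line in both panels, at 1.17 against 25.2 in mRNA and 1.28 against 38.8 in footprints.

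Differences between all genes were taken as log2(value + 0.1), a scale that draws low values towards each other. On this scale Nsun2 differed by -4.31 in mRNA and by -4.82 in footprints (NSUN2 KO minus wild type). It ranked lowest of 2860 genes in both. At least 2-fold lower values were found for 46 of 2856 genes in mRNA (1.61%), for 154 of 2851 genes in footprints (5.4%), and for 8 of 2848 genes in both assays (0.281%), each with a mean value of at least 1. Nsun2 was 1 of those 8. The other 7 ranged from -3.18 to -1.04 in mRNA and from -2.52 to -1.02 in footprints, and none of the 7 was as low as Nsun2 in either assay. The median difference over all genes was 0.00 in mRNA and -0.06 in footprints, and the SD over genes was 0.44 and 0.57, which shows the spread of genes and not of animals.

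The gene next to Nsun2 in the mRNA order was FBgn0030420, for which the gene table used here has no symbol. Its mRNA value was 5.33 in the NSUN2 KO library, from 426 reads, and 49.2 in the wild-type library, from 1523 reads, which is 9.23-fold lower (8.28 to 10.3). Its footprint value was 2.22 in the NSUN2 KO library, from 27 reads, and 13.2 in the wild-type library, from 80 reads, or 5.96-fold lower (3.81 to 9.60). The counting interval of its fold lay wholly below that of Nsun2 in both assays, so Nsun2 was lowered more than this gene beyond counting error. On the log2(value + 0.1) scale Nsun2 stood 1.13 below this gene in mRNA.

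In the footprint order the next gene was FBgn0034253, also without a symbol here, and it had a different pattern. Its footprint value was 8.09 in the NSUN2 KO library and 51.7 in the wild-type library, 6.39-fold lower (5.49 to 7.48). Its mRNA value was 1.51 in the NSUN2 KO library and 2.28 in the wild-type library, only 1.51-fold lower (1.21 to 1.87). Nsun2 stood 2.16 below this gene in footprints on the log2(value + 0.1) scale. FBgn0034253 was thus lowered from the wild type mainly in footprints, whereas Nsun2 was lowered in both assays. In level, the mRNA of FBgn0034253 was low in both genotypes, under the 10th percentile of 9.95 in NSUN2 KO and 9.72 in wild type.

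**Figure D3:**
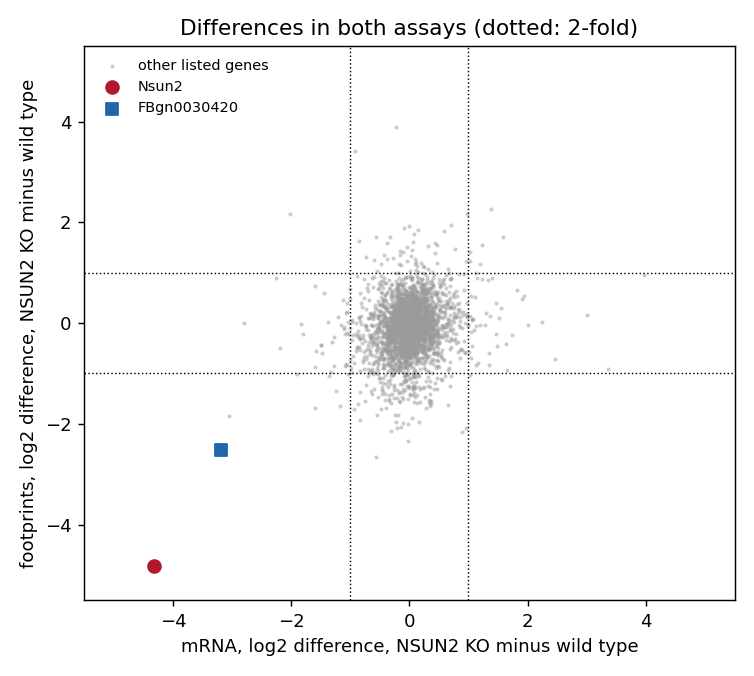
Footprint difference against mRNA difference of each listed gene (log2(value + 0.1), NSUN2 KO minus wild type; dotted lines mark 2-fold). Nsun2, the red circle, lies at -4.31 and -4.82, beyond FBgn0030420, the blue square at -3.18 and -2.52, and every other gene.

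Likeness of pattern was measured as the Euclidean distance between log2(value + 0.1) profiles over the 4 libraries, each profile centred on its own mean. FBgn0030420 was closest to Nsun2, at a distance of 2.64. The next 4 genes lay up to 3.54 away, and the median gene lay at 4.78. The profiles were not scaled to a common spread, so nearness need not mean a like fall in both assays. Those 4 genes differed by -2.19 to -0.83 in mRNA and by -1.37 to -0.50 in footprints, far less than Nsun2. These distances rest on 4 libraries of 2 genotypes and say nothing of shared function.

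The second comparison set footprints against mRNA, to ask whether the Nsun2 signals of these assays stood in the same ratio in both genotypes. Translation efficiency, which divides a gene's footprint value by its mRNA value, was 1.09 for Nsun2 in the NSUN2 KO libraries and 1.54 in the wild-type libraries. The log2 difference of these plain ratios was -0.50, with a 95% counting interval from -1.28 to 0.28 that held 0. A difference in this ratio was not detectable at this depth, which is limited by the 17 NSUN2 KO footprint reads. The source of the residual reads was not tested, so the NSUN2 KO ratio need not measure ribosome occupancy per message. The interval allows a NSUN2 KO translation efficiency from 41.1% to 121% of the wild-type one.

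By its measured values, Nsun2 stayed in the upper part of the list. The NSUN2 KO rank rests on 17 footprint reads, so a place above the median there is uncertain. The translation efficiency of Nsun2 was above that of 57.8% of the listed genes in the NSUN2 KO libraries. In the wild-type libraries it was above that of 68.7%. The median was 0.882 in NSUN2 KO and 0.898 in wild type. By the log2(value + 0.1) scale its difference in translation efficiency was -0.51, and 21.5% of the listed genes had a lower one. At least 2-fold lower translation efficiency was found for 197 of 2848 genes (6.92%), and Nsun2 was not among them. Its extreme position in mRNA and in footprints thus had no detected counterpart in their ratio. The counting interval for the plain ratios, from -1.28 to 0.28 in log2, reached past 2-fold lower, so such a fall was not excluded.

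**Figure D4:**
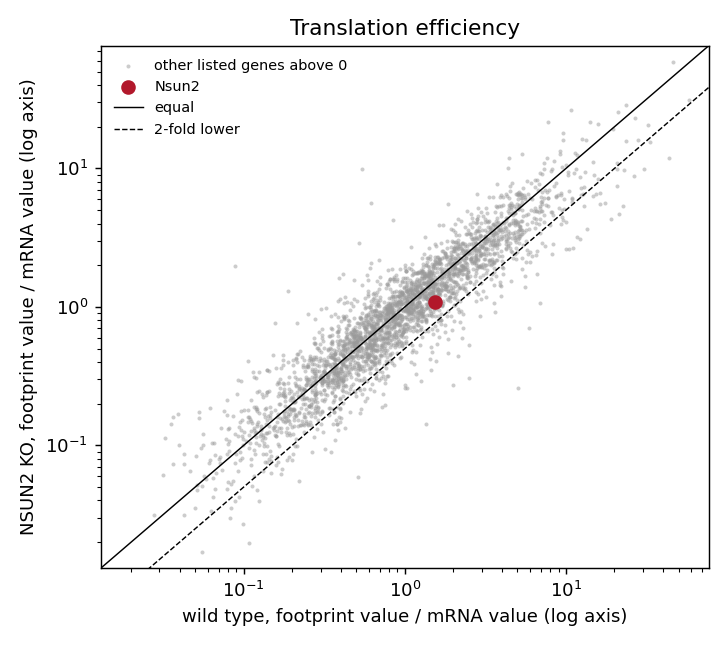
Translation efficiency (footprint value divided by mRNA value, log axes) of each listed gene above 0, NSUN2 KO against wild type, with lines for equal values and for 2-fold lower. Nsun2, in red, lies at 1.09 in NSUN2 KO and 1.54 in wild type, inside the cloud of the other genes and above the 2-fold line.

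The tables also list the highest m5C level found in each gene's message, as a fraction. Nsun2 carried a listed level of 0.110, near the lower limit of 0.1 and far below the median of 0.269. Only 176 genes, 6.15% of those listed, had a lower level. The message of the m5C enzyme was thus itself among the listed methylated messages, at a low level. The genotype in which the level was measured is not given in the sources used here, and neither is the site or its coverage, so the level has no interval and cannot be tied to NSUN2.

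The 317 other genes with a listed level under 0.12 had a median difference of 0.02 in mRNA and -0.04 in footprints on the log2(value + 0.1) scale. Of these 317 genes, 3 fell short of the wild type by 2-fold or more in mRNA and 15 in footprints. These shares of 0.946% and 4.73% lie near the 1.61% and 5.4% over all genes, so they say nothing particular about messages with low m5C levels. The lowest of them stood at -3.05 in mRNA and at -2.09 in footprints, both short of Nsun2.

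The genes that work with Nsun2 could not be set beside it. The gene table used here pairs 18 of the 2860 identifiers with a symbol, and it names CG6133 as Nsun2 on the X chromosome without its FBgn identifier, so the pairing of FBgn0026079 with Nsun2 was taken as given. None of the 106 other genes listed for comparison was among those 18. They were the other RNA cytosine methyltransferases such as Mt2 and Nsun5, readers and erasers of m5C such as yps and Tet, further tRNA and m6A enzymes, markers of the germline, follicle cells and other tissues, and the 5 annotated genes on each side of Nsun2. The labelled tissue was therefore not checked against its markers. In that table, of Release 6 and not of the dm3 build named by the submitters, Nsun2 lies between cib, an actin-binding protein gene, and dgt4, an augmin subunit gene whose annotated span overlaps its own. How reads in such an overlap were counted is not given in the sources used here.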

How the data were processed

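Poly(A) mRNA and ribosome footprints were sequenced from ovaries of NSUN2 KO and wild-type flies, with 1 library per group. The mRNA kit keeps strand, per the labels' protocols. Of the tools, TopHat2, HTSeq and cutadapt are named in the submitters' processing notes with the build dm3, but no version or parameter. The deposited expression column is a signal per gene, scaled by the authors to depth and length in a unit the file headers do not name, and no column is a plain count. The deposited m5C level is a fraction, per the file headers the highest of the gene.

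The deposited values were compared as log2(value + 0.1) with no test. A gene was called lower if it was at least 2-fold lower with a mean value of at least 1. Reads were recovered from the ratio of a gene's NSUN2 KO and wild-type values, which is a ratio of whole reads times 1 depth constant per assay. The constant is an estimate, chosen so that factors of 2, 3 and 5 were as common in NSUN2 KO as in wild-type reads, and the smallest factor giving a whole length (relative tolerance 1e-08) was taken. Reads came out for 89.9% of genes in mRNA and 95.6% in footprints. The step was also run on simulated data, whose outcome is not given here. The interval of translation efficiency sums the counting variances of its 4 read numbers. Python 3.11.15, numpy 2.4.6, pandas 2.3.3, scipy 1.17.1 and matplotlib 3.10.9 were used. Named genes were Nsun2, those next to it in the order of a difference, those closest in pattern, its annotated neighbours and the members of the comparison lists. Unnamed identifiers were printed for the nearest gene of each assay only, and no sequence was used here. The gene, the lists and these rules were chosen with earlier results of these data known.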

Additional observations from a re-analysis of the deposited data

How the results depend on the processing

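Nsun2 ranked lowest of 2860 genes in mRNA and in footprints under the pseudocounts of 0 and 1 and the 3 other scalings (sum of listed genes, median of ratios, upper quartile). Its mRNA log2 difference was -3.59 with a pseudocount of 1, which pulls low values together, and otherwise stayed within counting error. Its footprint difference ranged from -4.93 to -4.13 and its translation efficiency difference from -0.57 to -0.45.

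With a 1.5-fold rule, which admits smaller differences, 163 genes were lower in mRNA, 434 in footprints, 49 in both and 521 in translation efficiency. With a minimum mean of 50 recovered reads, chosen after seeing the data, 100 were lower in footprints, 5 in both and 122 in translation efficiency. This minimum tested fewer genes and left out those whose reads were not recovered. The number tested is not given here, so these 3 counts cannot be read as lower shares. With a pseudocount of 1, 4 were lower in both, and with median of ratios 5, which raises footprint differences by 0.06. The other 40 of 50 alternatives stayed within the limits used. Larger depth constants, also tried after seeing the data, change reads and intervals and not values, so their 3 results were fixed beforehand. They gave an interval from -1.39 to 0.38 for the log2 translation efficiency difference. No paired analysis was possible because every group holds a single library. Depth limits the translation efficiency of Nsun2, through its 17 NSUN2 KO footprint reads.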
